A study of Mus musculus with 4 samples.

Results

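TCF1, the product of Tcf7, is a high mobility group DNA-binding protein that bends DNA at its sites and is needed for the development of T cells. It acts with β-catenin or with Groucho corepressors, and thymocytes use it both when they commit to the T lineage and when they later divide into αβ and γδ cells. Described here are the autosomal chromatin regions in which TCF1 peaks were called in each of 3 mouse thymocyte populations, termed common regions. They were chosen by the overlap and the scores of the called peaks: peaks that overlapped by at least 1 bp were merged, merged regions of chromosomes 1 to 19 with a peak of all 3 lists were kept, and any with a score over 20 times the median of a list were set aside. This gave 3941 common regions of 122489 merged autosomal regions, or 3.22 %, and of 129232 merged regions in the whole series.

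The first population was Sox13hi γδ thymocytes, sorted for the γδ receptor, for CD24, a marker of immature cells, and for high signal of a cyan fluorescent reporter. The second, Sox13lo γδ thymocytes, was sorted in the same way for low or no reporter signal. Both came from C57BL/6 mice of the genotype TCRbeta KO.Sox13 ECFP KI/+, which lack TCRβ and so conventional αβ cells, and which have the reporter knocked into 1 allele of Sox13, itself an HMG-box factor gene. The third population was CD4 CD8 double-positive (DP) thymocytes of wild-type C57BL/6 mice, an αβ-lineage stage that expresses CD4 and CD8 together. The γδ cells therefore differed from DP cells in genotype as well as in lineage, and these cannot be told apart. The labels give the same number of cells for each immunoprecipitation, and each population was represented by 1 library. An input library of γδ thymocytes was not analysed here. The labels used here do not give age, sex or number of animals, and peak lists hold no expression with which the labelled cell types could be checked.

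Without replicates there is no test between populations. Intervals in parentheses are 95 % intervals, Wilson for shares and exact Poisson for counts and densities, and cover counting error only. Neighbouring regions are not independent, and read depth is unknown. The membership of a region and its scores and widths come from the same calls, so these are given as descriptions of what the rule selected. The rule did not use positions along the chromosomes directly, beyond the choice of autosomes. Each common region does hold a peak of every list, so its position is also that of peaks in each list. The Sox13lo list is the shortest, with 10871 peaks, and the placement of common regions was not separated from that of Sox13lo peaks. Merging of overlapping peaks also affects the counts of regions within 1 kb of one another.

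Most common regions were simple: each list contributed a single peak, and the peaks lay on top of one another. Exactly 1 peak per list was found in 3420 of the 3941 regions, or 86.8 % (85.7 to 87.8). At least 1 base was covered by peaks of all 3 lists in 3825 regions, 97.1 % of the set, and the other 116 were joined only through a peak that bridged the others. The Sox13hi list held 2 peaks in 409 regions and 3 peaks in 37. More than 1 peak was rarer in the other lists, with 42 regions of 2 Sox13lo peaks and 104 regions of 2 DP peaks. The midpoints of the best-scored peaks of any pair of lists differed by a median of 50 bp, which is the width of the grid on which the authors' peaks start. Midpoints within 100 bp of each other were found in 79.3 % of regions for Sox13hi and Sox13lo, in 75.1 % for Sox13hi and DP, and in 77.4 % for Sox13lo and DP. The median signed difference was 0 bp in each pair. Regions were kept because their peaks overlap, so shared bases and close midpoints follow in large part from the rule.

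The common regions were short. Their median width was 550 bp, with 5 % at or under 300 bp and a maximum of 2400 bp, and together they covered 2.33 Mb, or 0.0942 % of the autosomes. The median over all autosomal merged regions was 200 bp. Regions held by only a pair of lists had medians of 350 bp for Sox13hi with Sox13lo, 400 bp for Sox13lo with DP and 250 bp for Sox13hi with DP. Within the common regions the Sox13lo peak was wider than both others in 2559 cases, or 64.9 % (63.4 to 66.4), and the Sox13hi peak was narrower than both others in 2766 cases, or 70.2 %. This order was not particular to the common regions. The other autosomal peaks had median widths of 100 bp in the Sox13hi, 300 bp in the Sox13lo and 200 bp in the DP list. Merging itself widens a region, and a wider peak overlaps others more easily, so the widths follow in part from the rule.

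Scores, the authors' own value per peak, were higher in common regions than in the rest of each list. The best-scored peak of a common region had a median score of 25.5 in the Sox13hi list, against 7.36 for the other autosomal peaks of that list. In the Sox13lo list the medians were 56.5 in common regions and 26.3 in other peaks, and in the DP list 58.1 and 24.7. Each list has its own scale, so scores are compared within a list only. As multiples of the list medians, the median common region stood at 3.23 in the Sox13hi, 1.59 in the Sox13lo and 2.29 in the DP list.

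**Figure D1:**
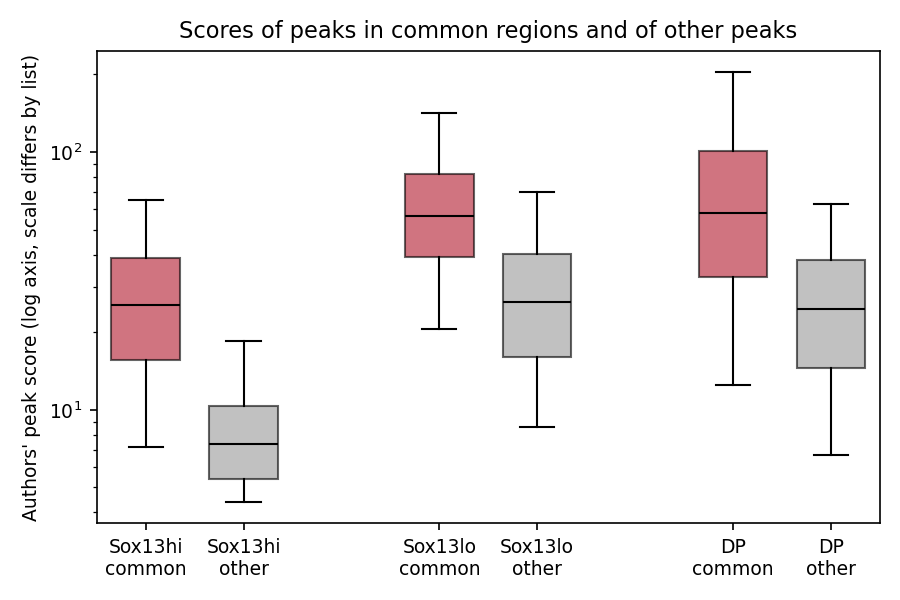
Authors' peak score on a log axis for the best-scored peak of each of the 3941 common regions (red) and for the other autosomal peaks (grey), for Sox13hi, Sox13lo and DP; the scale differs by list. Boxes span the 25th to 75th percentile with the median as a line, and whiskers span the 5th to 95th percentile; the medians of common regions are 25.5, 56.5 and 58.1.

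Weak peaks were nevertheless part of the set. In 2601 regions, or 66.0 % (64.5 to 67.5), all 3 peaks scored at or above the median of their list. The score was below the list median in 251 regions for Sox13hi, in 778 for Sox13lo and in 702 for DP. In 42 regions it was below the median in each list.

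The share of a list that lay in common regions fell steeply with the score. Of the best-scored 10 % of autosomal peaks, 64.3 % (62.8 to 65.8) lay in common regions for Sox13hi, 85.3 % (83.01 to 87.3) for Sox13lo and 24.5 % (23.6 to 25.4) for DP. In the next 10 % the shares were 20.4 % for Sox13hi, 72.2 % for Sox13lo and 5.16 % for DP. In the lowest-scored 10 % they were 1.10 %, 3.37 % and 1.30 %. Over whole lists the shares were 11.02 %, 38.3 % and 4.73 %. The lists differ in length, with 41720 Sox13hi, 10871 Sox13lo and 90956 DP peaks, so these shares rank peaks within a list and do not compare the populations.

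**Figure D2:**
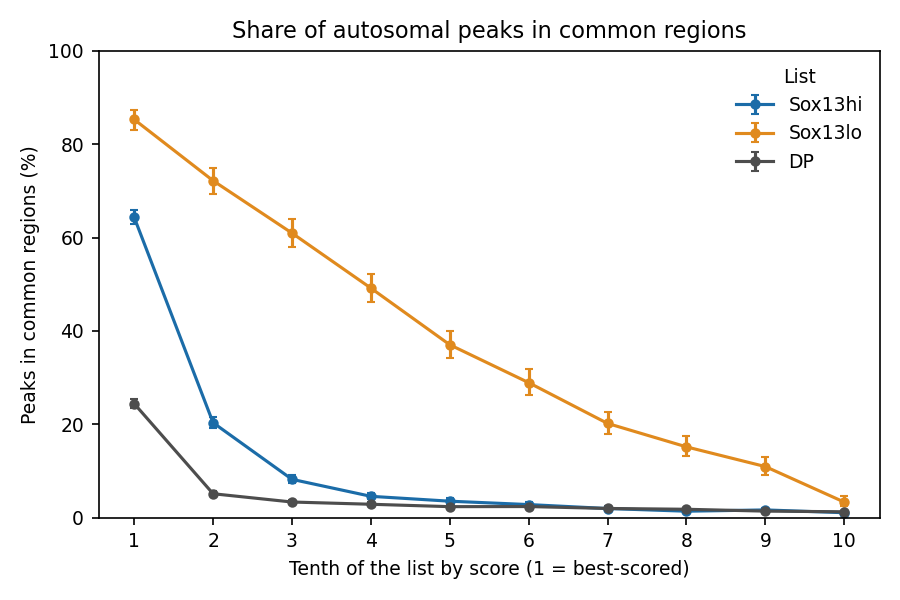
Percent of autosomal peaks in common regions (vertical axis) for successive steps of 10 % of each list by score (horizontal axis, 1 is best-scored), with 95 % Wilson intervals, for Sox13hi, Sox13lo and DP. The first point is at 64.3 % for Sox13hi, 85.3 % for Sox13lo and 24.5 % for DP, and the last is at 1.10, 3.37 and 1.30 %.

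The regions that ranked well in all 3 lists were those called with high scores in both γδ lists and in the DP list. They were ordered by the worst of their 3 ranks among the 3941 common regions, and positions are on mm9. Neither repeated sequence nor input signal was checked at these positions, so they are given as called regions. The first lay on chromosome 16 at 17222101 to 17222600. Its scores were 129 in the Sox13hi, 257 in the Sox13lo and 385 in the DP list, at ranks 7, 11 and 18. The next, on chromosome 2 at 90235251 to 90235650, scored 112 in the Sox13hi, 221 in the Sox13lo and 389 in the DP list, at ranks 16, 33 and 17. Both were narrow for such scores, at 500 and 400 bp against the median of 550 bp for the set.

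Other well-ranked regions were wider. The region on chromosome 8 at 48373901 to 48374900 scored 93.2 in the Sox13hi, 205 in the Sox13lo and 341 in the DP list. On chromosome 16 at 18581901 to 18582900 the scores were 145 in the Sox13hi, 195 in the Sox13lo and 380 in the DP list, and 2 further common regions lay within 10 kb of it. No other common region lay within 10 kb of the remaining 9 of the 10 best-ranked regions. The region on chromosome 1 at 91476601 to 91478350 was 1750 bp wide and scored 83.9 in the Sox13hi, 254 in the Sox13lo and 299 in the DP list. That on chromosome 7 at 64764451 to 64765450 stood at rank 9 in DP cells with a score of 434, and scored 107 in the Sox13hi and 181 in the Sox13lo list. The rest of the 10 were on chromosome 4 at 33275751 to 33276750 and 45839101 to 45839950, on chromosome 2 at 146909451 to 146911300 and on chromosome 11 at 4847051 to 4848100. Their scores ran from 79.9 to 134 in the Sox13hi, from 163 to 235 in the Sox13lo and from 244 to 397 in the DP list.

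Good scores were shared least often by Sox13hi and DP cells, and about equally often in the other pairs of populations. Of the 1313 common regions best scored in Sox13hi cells, 768, or 58.5 % (55.8 to 61.1), were also among the 1313 best scored in Sox13lo cells, and 582, or 44.3 % (41.7 to 47.0), among the 1313 best scored in DP cells. For Sox13lo and DP cells the shared number was 773, or 58.9 %. The regions were chosen from the same calls, so these shared numbers were not set against expected ones. The 1314 regions with the lowest DP scores held 323, or 24.6 %, of the best scored in Sox13hi cells, and the 1314 with the lowest Sox13lo scores held 134, or 10.2 %. In all, 450 regions were among the 1313 best in each list. They had a median width of 750 bp, against 350 bp for the 368 regions among the lowest 1314 in each list.

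Some common regions ranked high in one lineage and low in the other. Ranks are among the common regions, so a low rank can still be a typical score for the list. In 119 regions, or 3.02 % (2.53 to 3.60), both γδ scores were among the best 1313 and the DP score among the lowest 1314. The median DP score of these 119 was 27.2, against a median of 25.4 for the whole DP list. The reverse held for 75 regions, or 1.90 % (1.52 to 2.38), with a median score of 12.8 in the Sox13hi and 35.0 in the Sox13lo list, where the list medians were 7.90 and 35.5. The regions were chosen from the same calls, so neither number was set against an expected one, and neither shows an excess of such regions. The example with the widest gap in ranks, chosen after the scores were seen, was on chromosome 1 at 136456751 to 136457550. It scored 83.6 in the Sox13hi and 101 in the Sox13lo list, and its DP score of 6.68 stood at rank 3881 of 3941. Its peaks were 700, 800 and 150 bp wide in Sox13hi, Sox13lo and DP cells. On chromosome 13 at 108678651 to 108680150 the scores were 89.4 in the Sox13hi, 162 in the Sox13lo and 20.04 in the DP list. In the opposite sense, on chromosome 13 at 38619601 to 38620550, the scores were 11.6 in the Sox13hi, 14.1 in the Sox13lo and 153 in the DP list, with peak widths of 150, 200 and 950 bp. The same was seen on chromosome 14 at 12386151 to 12386650, where the peaks scored 10.6 in the Sox13hi, 35.8 in the Sox13lo and 192 in the DP list. With 1 library per population these gaps have no replicate check.

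The common regions were spread unevenly over the autosomes. Their density was 1.59 per Mb over all autosomes, and 2.40 per Mb on chromosome 11, which is 1.51 times (1.34 to 1.69) the overall value. Chromosome 19 stood at 1.41 (1.19 to 1.67), chromosome 4 at 1.31 (1.17 to 1.46) and chromosome 2 at 1.18 (1.06 to 1.31). The lowest values were 0.616 (0.512 to 0.735) on chromosome 14, 0.711 on chromosome 3, 0.740 on chromosome 16 and 0.751 on chromosome 1. Chromosomes 11 and 19 are known as gene-rich mouse chromosomes. A relation to gene density was not tested. The 3 densest, chromosomes 11, 19 and 4, held 755 common regions. This was 19.2 % of the set on 13.7 % of the autosomal length. The 3 sparsest, chromosomes 14, 3 and 16, held 420, or 10.7 % on 15.5 % of the length. The chromosomes were picked by these densities, so the shares only restate them.

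Regions seen only in DP cells did not show this pattern: their relative density lay between 0.932 and 1.04 on the 19 autosomes. Between chromosomes this measure had an SD of 0.243 for common regions and 0.0235 for DP-only regions. Counting error is larger in the smaller set, with 3941 common and 78760 DP-only regions, but the intervals of chromosomes 11 and 14 for common regions do not reach the DP-only range. The uneven pattern was similar in the other classes with a Sox13lo peak. Over the 19 chromosomes, which share the same 3 libraries, the density of common regions correlated with that of Sox13lo and DP regions at r = 0.92, and with that of Sox13hi and Sox13lo regions at r = 0.87. For Sox13lo-only regions r was 0.82. For Sox13hi and DP regions r was -0.48, for Sox13hi-only regions -0.70 and for DP-only regions -0.06. These r are descriptions.

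**Figure D3:**
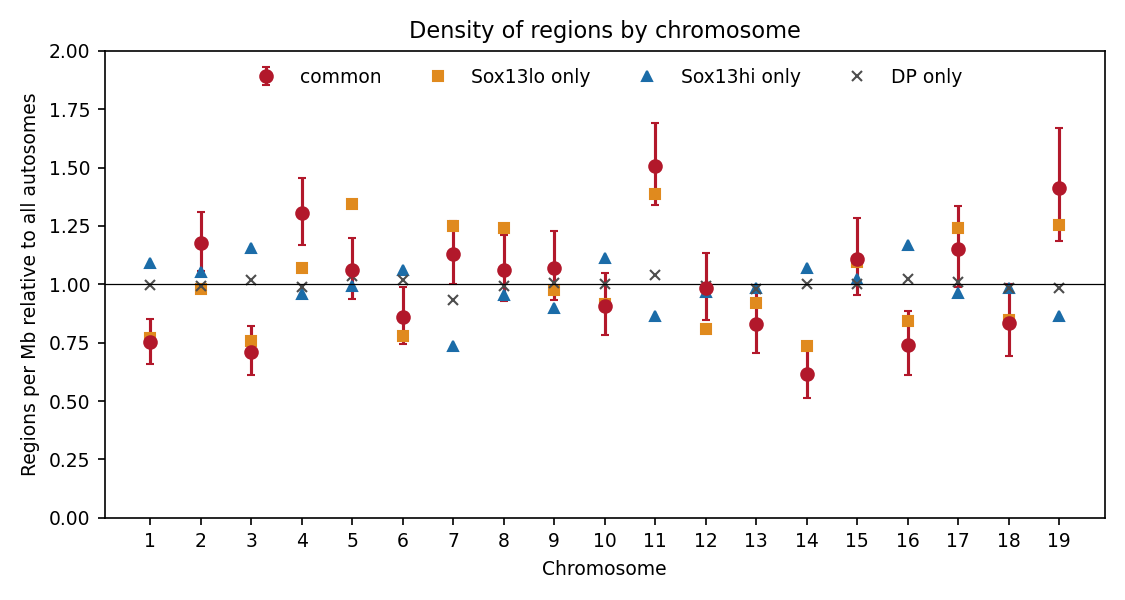
Regions per Mb on each autosome divided by the value of all autosomes (line at 1), for common regions (red circles with 95 % Poisson intervals) and for regions in the Sox13lo, Sox13hi or DP list only. Common regions reach 1.51 on chromosome 11 and 0.616 on chromosome 14, and DP-only regions stay between 0.932 and 1.04.

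Members of high and low score were also compared by chromosome. Chromosomes 11, 19 and 4 make up 13.7 % of the autosomal length. They were picked as the densest in common regions, so an excess over the length was built in. Of all common regions they held 19.2 %, which is the value to set beside those of the groups. Of the 450 regions best scored in all 3 lists they held 85, or 18.9 % (15.5 to 22.8). Of the 368 lowest scored in all 3 they held 62, or 16.8 % (13.4 to 21.0), an interval that reaches the share of the length. Of the 119 regions ranked high in γδ and low in DP cells they held 33, or 27.7 % (20.5 to 36.4), and of the 75 ranked high in DP and low in γδ cells 18, or 24.0 % (15.8 to 34.8). The interval of the 119 regions lies above 19.2 %, and the intervals of the other groups include it. The intervals of the groups overlap one another, and the difference was not tested.

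Common regions lay close to one another more often than their number would give at an even density. Another common region had its midpoint within 10 kb of 414 members, or 10.5 % (9.59 to 11.5), against 3.44 % of the other autosomal regions. The number of pairs within 10 kb was 226, which is 3.60 times (3.14 to 4.10) the number at the mean density of the set over the autosomes. Set against the density of each chromosome the value was 3.42. For regions of a single list the same ratio was 1.02 (1.01 to 1.04) in DP-only and 1.20 (1.16 to 1.23) in Sox13hi-only regions. It was higher in Sox13lo-only regions, at 5.27 (4.53 to 6.09), and in regions of Sox13hi and Sox13lo, at 7.20 (6.08 to 8.46). Close spacing was thus not particular to the common set.

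The excess had a near and a far component. Within 1 kb there were 86 pairs of common regions, a density 13.7 times (10.9 to 16.9) the mean, although merging prevents pairs closer than their own widths. The ratio was 5.89 at 1 to 2 kb, 2.81 at 2 to 5 kb and 1.59 (1.18 to 2.10) at 5 to 10 kb. Beyond that distance it did not fall further but lay between 1.91 and 2.21 from 10 to 200 kb, and was 1.64 (1.60 to 1.69) at 500 kb to 1 Mb. Neighbouring common regions were a median of 232 kb apart, with a mean of 606 kb and a longest spacing of 18.7 Mb.

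The surroundings of common regions were rich in Sox13lo peaks and poor in Sox13hi-only peaks. Sox13lo-only regions stood at 4.50 times (4.08 to 4.95) their mean autosomal density within 10 kb of a common region, regions of Sox13hi and Sox13lo at 4.44 (3.96 to 4.95), and regions of Sox13lo and DP at 4.34 (3.71 to 5.05). Sox13hi-only regions were at 0.800 (0.746 to 0.857) of their mean density, and DP-only regions at 1.03 (0.994 to 1.07). Regions of Sox13hi and DP that lacked a Sox13lo peak were at 1.07 (0.804 to 1.39). Scaling to each chromosome moved these values little, to 4.33 for Sox13lo-only and 0.813 for Sox13hi-only regions. Each common region holds a Sox13lo peak itself, and Sox13lo-only regions also lay close to one another, at 5.27 within 10 kb. How far the surroundings only reflect the placement of Sox13lo peaks was not tested.

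These ratios changed with distance in different ways. For Sox13lo-only regions the ratio was 17.1 within 1 kb and 2.007 to 2.32 in each step from 5 to 100 kb. For Sox13hi-only regions it stayed between 0.783 and 0.846 in every step from 1 kb to 1 Mb. Better-scored regions were also counted. The best-scored 7876 DP-only regions stood at 1.06 (0.932 to 1.19) within 10 kb of a common region, and the best-scored 3176 Sox13hi-only regions at 0.770 (0.609 to 0.961). Within 100 kb these Sox13hi-only regions stood lower than the whole class, at 0.689 (0.639 to 0.742) against 0.797 (0.780 to 0.815). Counted from the common regions, 1054, or 26.7 % (25.4 to 28.1), had another common region, a Sox13lo-only region or a region of a pair of lists within 10 kb. The same share was not counted for other autosomal regions, so it does not by itself show an excess.

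**Figure D4:**
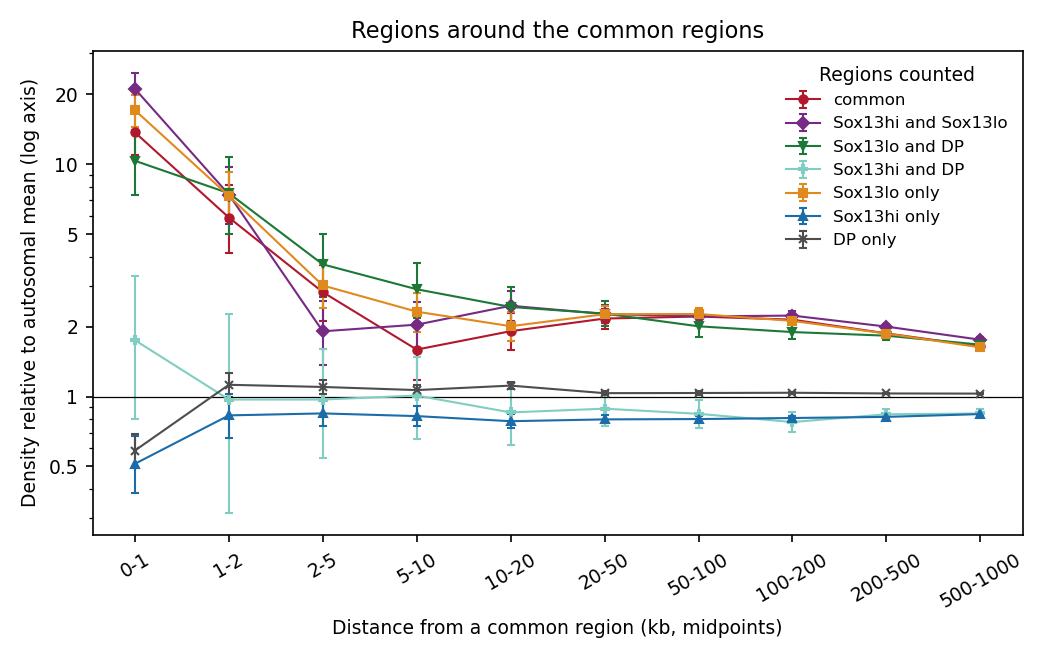
Density of regions of each class at increasing distance from a common region (horizontal axis, kb between midpoints, in steps), divided by the mean autosomal density of that class (log axis, line at 1), with 95 % Poisson intervals. Common regions and classes with a Sox13lo peak are at 10.3 to 21.1 within 1 kb and near 2 from 10 to 200 kb, and Sox13hi-only regions lie below 1 throughout.

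Clusters were small. With midpoints chained at up to 20 kb, 595 common regions, or 15.1 % (14.0 to 16.2), formed 279 clusters of at least 2, and 3346 regions stood alone. Of the clusters 244 had 2 members, 33 had 3 and 2 had 4. Regions with and without a common neighbour within 10 kb had similar median scores, 24.4 and 25.7 in Sox13hi, 56.6 and 56.5 in Sox13lo, and 55.8 and 58.6 in DP cells.

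The tighter of the clusters of 4 was on chromosome 2 at 74493501 to 74521250, a span of 27.8 kb. Its second region scored 51.4 in the Sox13hi, 143 in the Sox13lo and 70.3 in the DP list. The fourth scored 57.5 in the Sox13hi, 74.0 in the Sox13lo and 213 in the DP list. The best-scored region of this cluster therefore differed between Sox13lo and DP cells. The other cluster of 4 was on chromosome 17 at 24786851 to 24833300, a span of 46.5 kb. Its first region scored 76.4 in the Sox13hi, 66.3 in the Sox13lo and 71.8 in the DP list, and its other 3 scored 28.4 to 34.8 in Sox13hi, 42.3 to 70.1 in Sox13lo and 28.7 to 33.4 in DP cells.

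**Figure D5:**
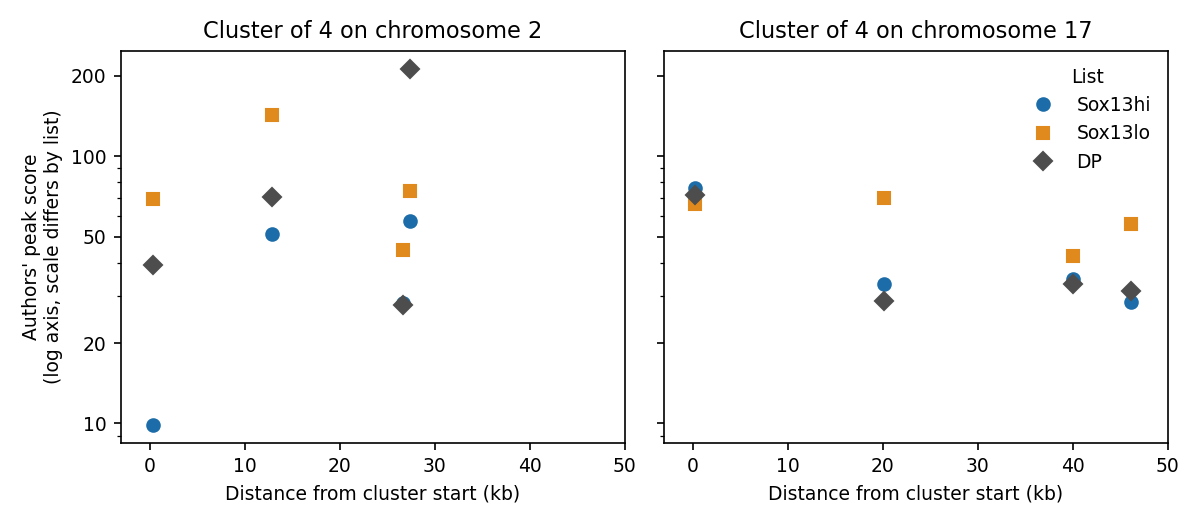
Authors' peak score (log axis, scale differs by list) of the members of both clusters of 4 common regions against their distance in kb from the start of the cluster, for Sox13hi, Sox13lo and DP. In the chromosome 2 cluster the Sox13lo score is highest in the second region, at 143, and the DP score in the fourth, at 213.

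The tightest clusters of 3 spanned 2.2 to 2.5 kb. On chromosome 13 at 31649851 to 31652050 the 3 regions scored 54.8, 33.3 and 89.5 in Sox13hi, 44.3, 66.7 and 123 in Sox13lo, and 150, 31.4 and 127 in DP cells. On chromosome 3 at 58218601 to 58220800 the first region had the highest Sox13lo score, 82.3, and the lowest DP score, 10.2, of the 3, and the second had the lowest Sox13lo score, 36.5, and the highest DP score, 150. On chromosome 17 at 63230001 to 63232500 the third region had the highest scores in Sox13hi (32.6) and Sox13lo (46.9) cells and the lowest in DP cells (20.7). Neighbouring common regions thus did not always share their order of scores between the populations.

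The score limit removed 15 autosomal regions. Just inside it were regions on chromosome 18 at 77097951 to 77099250, at 18.95 times the Sox13hi median, and on chromosome 3 at 91884501 to 91885800, at 18.8 times the DP median. The next inside were on chromosome 13 at 60277101 to 60278700, chromosome 12 at 110271451 to 110272550 and chromosome 16 at 18581901 to 18582900, at 18.6, 18.4 and 18.3 times a list median. Just outside were regions on chromosome 9 at 123168751 to 123169850, at 20.1 times the Sox13hi median with scores of 159 in the Sox13hi, 167 in the Sox13lo and 199 in the DP list, and on chromosome 17 at 39985651 to 39986050, at 20.1 times the DP median. The next outside were on chromosome 7 at 17396051 to 17397100, chromosome 16 at 91534801 to 91535250 and chromosome 4 at 145426601 to 145427550, at 20.3, 21.6 and 23.7 times the DP median. The regions around the limit differ little in score, so the limit marks no natural break.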

How the data were processed

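TCF1 chromatin immunoprecipitation and sequencing gave 1 peak list for each of the Sox13hi, Sox13lo and DP populations. Per the labels' protocols, cells were fixed and sonicated, and gel-selected fragments of 300 to 500 bp were sequenced after 17 cycles of PCR. The deposited lists have no header and give positions and a score for each peak. The build is mm9, per the submitters' processing notes. How reads were aligned, how peaks were called and whether the input was used is not given in the sources used here. Read depth is unknown, so absence from a list can mean only that a site was under its threshold.

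Peaks were merged in Python 3.11.15 (numpy 2.4.6, pandas 2.3.3, scipy 1.17.1), and the merge was checked against bedtools 2.31.1 and on simulated lists. A file's end was read as the last base, and printed positions are 1-based. Chromosome lengths came from GenomeInfoDb 1.38.1, and plots were drawn with matplotlib 3.10.9. A density ratio is the number of pairs of midpoints within a distance, divided by the number at the mean autosomal density.

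The members, lists and measures were chosen with earlier results of these data known. Named regions are the 10 with the best worst rank, the 5 clusters with most members (ties by shorter span), the 5 regions on either side of the score limit, and those said to be chosen otherwise. The gene and promoter tables at hand are on another build and were not used, and no coordinates were converted, so genes, promoter shares, TCF/LEF motifs and sequences of the common regions were not analysed here.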

Additional observations from a re-analysis of the deposited data

Results flagged for a closer look

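On the X chromosome, which the rule leaves out, 99 regions held peaks of all 3 lists, a density 0.373 times that of the common regions on the autosomes. On the Y chromosome there were 3, of which 2 exceeded the score limit. The labels used here give no sex for the animals.

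The 15 autosomal regions set aside for their scores included 3 within a short stretch of chromosome 17 from 39980951 to 39986050. Their highest scores were 2682 in the Sox13hi, 7563 in the Sox13lo and 17027 in the DP list. Another, on chromosome 2 at 27356751 to 27358250, scored 225 in the Sox13hi, 223 in the Sox13lo and 19.4 in the DP list. Repeated sequence was not checked, so these are given as called regions.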

How the results depend on the processing

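Of the 59 alternative values, 32 stayed within 1.5 times (a number of regions) or within the counting interval (other values), and 27 moved. The number of common regions was 2067 with a reciprocal overlap of 50 %, 2600 with the better-scored 50 % of each list and 1974 with lists of equal length, since each of these admits fewer peaks or pairs. In the order Sox13hi, Sox13lo and DP, the share of a list in common regions was 5.15, 19.9 and 2.41 % with the reciprocal overlap, 9.21, 34.5 and 4.19 % with midpoints within 200 bp, 14.5, 49.9 and 6.17 % with the better-scored 50 %, and 20.6, 19.3 and 19.1 % at equal length. At equal length the shares are close by construction. Peaks resized to 500 bp gave 11.4 % for Sox13hi and 40.5 % for Sox13lo, and all chromosomes gave 4.56 % for DP. The median width was 500 bp with the reciprocal overlap and with midpoints, and 600 bp after resizing, with the better-scored 50 % and at equal length. The pair ratio of common regions was 2.40 at 50 kb and 2.30 at 100 kb, and ran from 3.36 to 3.76 in the alternatives at 10 kb. The ratio for Sox13lo-only regions was 2.66 at 50 kb and 3.88 after resizing. For moves not explained here the cause was not tested. The relative density of chromosome 11 ran from 1.44 to 1.58. Settings for promoters, motifs and genes were left unrun. No paired analysis was possible because there was 1 library per population. The unknown read depth limits what a missing peak shows.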

Other observations

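Common regions were counted in windows of 1 Mb, of which those described were picked for their counts. Of 2482 windows, 977 held none, and 207 windows with at least 5, or 8.34 % of all, held 1354 common regions, or 34.4 % of the set. Windows and densities use whole chromosome lengths, and any stretch where reads cannot be placed was not taken out. Such counts are not given here for other classes or for an even density, so they do not by themselves show an excess. The richest windows were adjacent, on chromosome 10 at 79 to 80 and 80 to 81 Mb, with 16 common regions each. They also held 17 and 14 Sox13lo-only and 12 and 15 Sox13hi and Sox13lo regions. The means of chromosome 10 for these classes were 1.08 and 0.900 per Mb. Sox13hi-only regions numbered 8 and 12, and DP-only regions 34 and 23. Here the means of chromosome 10 were 14.3 and 32.0 per Mb. Next came chromosome 5 at 115 to 116 Mb with 13 and chromosome 15 at 78 to 79 Mb with 12. On chromosome 11 the windows at 97 to 98, 98 to 99 and 120 to 121 Mb held 11 each. Across the 2482 windows, which share libraries and are not independent, the rank correlation of common regions was 0.49 with Sox13lo-only, -0.34 with Sox13hi-only and 0.06 with DP-only regions.

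Long stretches had no common region. The longest, 18.7 Mb on chromosome 14 from 79881401 to 98567900, held 683 DP-only and 415 Sox13hi-only regions, and 7 Sox13lo-only regions. Over the whole of chromosome 14 these classes had 32.0, 13.7 and 0.871 regions per Mb. Others were 12.6 Mb on chromosome 15 from 12669751 to 25294000 and 12.1 Mb on chromosome 1 from 108069801 to 120207650. These held 285 and 207 Sox13hi-only regions, and 3 and 5 Sox13lo-only regions. The means of chromosomes 15 and 1 were 13.1 and 14.0 per Mb for Sox13hi-only regions. For Sox13lo-only regions they were 1.29 and 0.913 per Mb.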
